A study of Mus musculus with 2 samples.

Results

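The S100 genes and Calb1 encode small calcium-binding proteins of the EF-hand superfamily, and their transcripts were followed here in implantation sites, stretches of the pregnant mouse uterus that each contain a conceptus and the decidua and muscle about it. The set of 10 genes (S100a1, S100a4, S100a6, S100a8, S100a9, S100a10, S100a11, S100a13, S100g and Calb1) was chosen by gene family with the signals of these arrays already known, so their values are given as descriptions. A probe set was taken as a member where the platform annotation gave it one of these symbols and no other. That rule found 12 probe sets for 9 of the genes, out of 22626 probe sets and 12393 genes. S100a11, a partner of annexin A1, was represented by 1 probe set, whose annotation names 3 genes, and no value is given for it.

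RNA came from implantation sites dissected on day 8 of pregnancy from females of 4 months on a C57Bl/6J X OLA129 background. The Cbs null group was 1 array from homozygous Cbs-deficient females, and the control group was 1 array from females labelled only as control. The enzyme encoded by Cbs, cystathionine beta-synthase, makes cystathionine out of homocysteine and serine. Neither the deleted part of Cbs, nor the genotype of the conceptus, nor the number of animals behind an array is given in the labels used here. Nothing measures the spread between animals, so no test between genotypes was possible and every difference describes these 2 arrays. In whole tissue, fewer cells of a type and less RNA per cell cannot be told apart.

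The arrays had median signals of 71.4 for Cbs null and 68.8 for control sites. The ratio of 3' to 5' signal for Gapdh was 1.15 on the Cbs null array and 1.07 on the control array. The brighter Cbs probe set read 23.8 in Cbs null and 30.3 in control sites, and the other read 22.3 and 29.9 in the same order, too dim to check the labels. Markers of the labelled tissue were present. Of the decidual stroma list 12 of 14 genes passed the signal filter, and of the smooth muscle list 9 of 10 did. The filter asks that the mean of both signals reach 70.5, its median over all probe sets, and 7079 of all 12393 genes passed it. The 2 lists share Des.

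EF-hand proteins bind calcium in a loop held between a pair of helices. S100 proteins are mostly dimers that change shape on binding calcium and then grip a target protein, whereas the calbindins, S100g and Calb1, chiefly buffer calcium and carry it through cells. In the mouse uterus both calbindins are made in the epithelium under control of ovarian steroids. S100a8 and S100a9 join as calprotectin, an abundant protein of neutrophils, yet mouse embryos without S100a8 die early while mice without S100a9 are viable.

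The upstream sequences of 4 genes are shown because these genes differed most among those in the RefSeq promoter table: S100a9 and S100g were higher and S100a4 lower in Cbs null sites, and S100a8, beside S100a9 on the chromosome, had a ratio below 0. Each is the 250 bases before the annotated start, read 5′ to 3′ on the strand of the gene, from RefSeq on build GRCm38.p6. Capitals mark the letters of a TATA box (TATAAA), an oestrogen receptor half-site (GGTCA) or a progesterone receptor half-site (TGTTCT), searched on both strands, none of which overlapped another. S100a9 lies at chr3:90695722-90695971 on the minus strand, S100a8 at chr3:90668821-90669070 on the plus strand, S100a4 at chr3:90603520-90603769 on the plus strand and S100g at chrX:162964600-162964849 on the minus strand.
S100a9: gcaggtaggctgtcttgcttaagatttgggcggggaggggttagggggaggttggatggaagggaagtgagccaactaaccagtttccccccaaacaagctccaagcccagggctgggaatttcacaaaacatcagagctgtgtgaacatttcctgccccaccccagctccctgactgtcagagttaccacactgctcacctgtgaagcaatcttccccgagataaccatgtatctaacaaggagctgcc
S100a8: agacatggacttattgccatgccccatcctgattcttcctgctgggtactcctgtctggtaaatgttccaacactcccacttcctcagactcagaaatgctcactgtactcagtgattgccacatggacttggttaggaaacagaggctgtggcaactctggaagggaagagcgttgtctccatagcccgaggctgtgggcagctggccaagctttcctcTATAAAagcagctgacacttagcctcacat
S100a4: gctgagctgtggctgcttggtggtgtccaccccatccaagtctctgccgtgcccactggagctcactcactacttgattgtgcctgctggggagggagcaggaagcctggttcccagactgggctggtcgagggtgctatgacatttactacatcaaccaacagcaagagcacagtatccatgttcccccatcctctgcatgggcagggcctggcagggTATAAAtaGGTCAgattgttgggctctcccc
S100g: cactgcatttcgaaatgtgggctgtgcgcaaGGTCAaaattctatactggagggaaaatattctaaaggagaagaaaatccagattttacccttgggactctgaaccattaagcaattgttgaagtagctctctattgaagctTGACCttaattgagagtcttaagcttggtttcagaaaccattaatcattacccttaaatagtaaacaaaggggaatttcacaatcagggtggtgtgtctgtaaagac

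The TATAAA letters stood 30 bases before the start in S100a8 and 31 in S100a4, 2 of the 8 listed genes with a sequence, and in 12.4% of all 32851 promoters of this length. The half-site GGTCA or its complement was found in 35.2% of all promoters. It occurred in 3 of the 8, once in S100a4 and in S100a11, and at 219 and 107 bases before the start in S100g, while the window of S100a9 held none of the 3 motifs. The progesterone receptor half-site, in 16.1% of all promoters, was found only in S100a6 among these 8. A match describes letters only, and these arrays carry no measurement of binding.

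Both calbindins had higher signals in Cbs null sites. Calb1, the larger calbindin, read 104.2 in Cbs null and 47.3 in control sites, a log2 ratio of 1.14 or 2.20-fold higher (Cbs null over control, as for all ratios below). The control value lay under the filter of 70.5, so the gene passed it through its Cbs null value. Its other probe set read 7.2 in Cbs null and 12.4 in control sites, both under the floor of 14.3 below which signals were not ordered, so only 1 of 2 probe sets carried a ratio. With the median over both probe sets in place of the brighter one, the log2 ratio of Calb1 was 0.57, under 1.5-fold.

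S100g, the smaller calbindin, read 637.2 in Cbs null and 450.6 in control sites, 1.41-fold higher with a log2 ratio of 0.50. Among the 1000 probe sets closest to it in mean signal, the central 95% of log2 ratios ran from -0.46 to 0.43, and S100g lay just above that range. For Calb1 the same range was -0.63 to 0.75. Of the 7079 genes that passed the filter, 3.80% had a ratio as high as S100g and 0.396% one as high as Calb1.

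**Figure D1:**
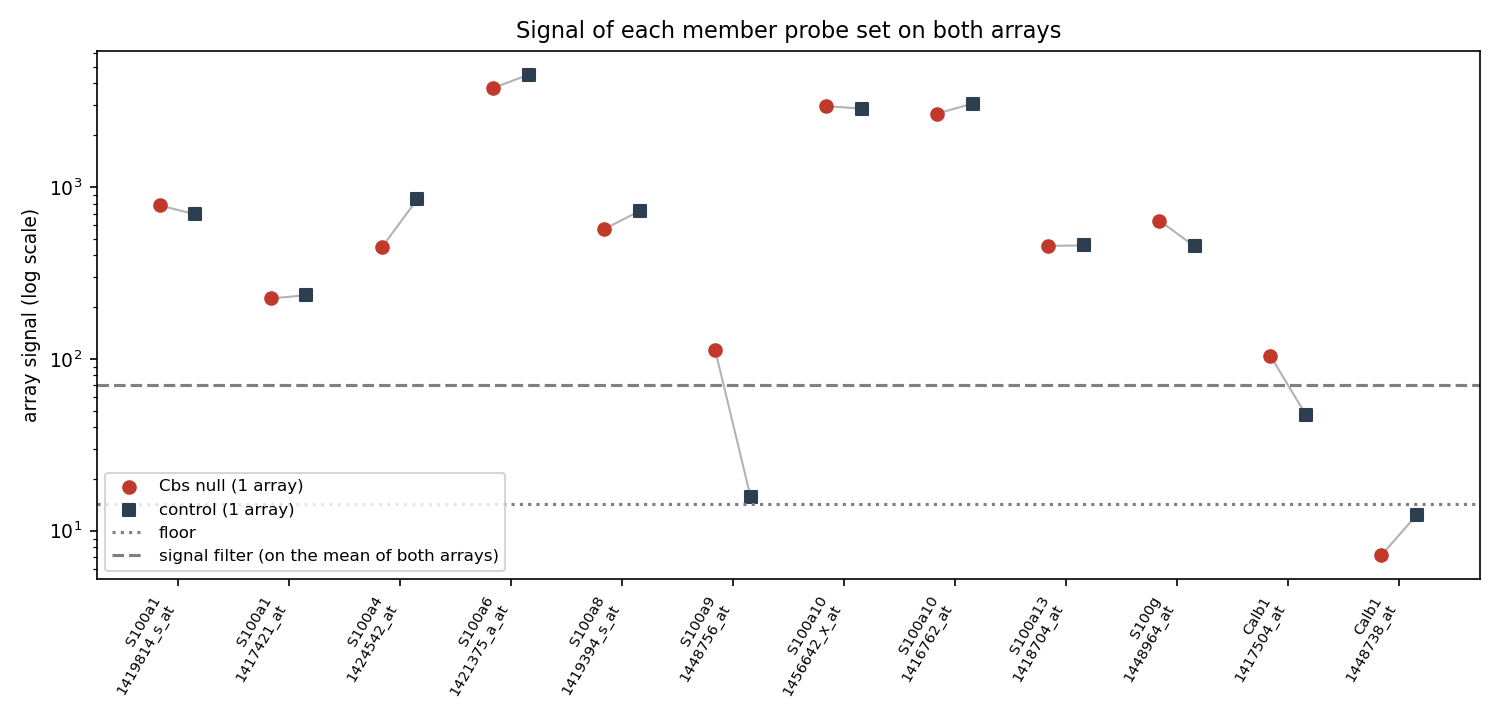
Signal (log scale) of each of the 12 member probe sets on the Cbs null array (red circles) and the control array (dark squares), 1 array each; the dotted line is the floor of 14.3 and the dashed line the filter of 70.5 on the mean signal. S100a9 and the brighter Calb1 probe set cross the dashed line between the arrays, and the other Calb1 probe set lies under the floor on both.

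Most genes of a list for epithelial calcium entry and extrusion and for vitamin D were under the filter. Of 10 such genes on the array 3 passed it, Trpv6, Fxyd4 and Rxra. Their median log2 ratio of 0.40, against 0.02 over all genes that passed, is simply the value of Trpv6. Rxra read 94.9 in Cbs null and 94.6 in control sites. Trpv6, the calcium entry channel that works with calbindins, read 149.1 in Cbs null and 113.2 in control sites (log2 ratio 0.40). Fxyd4, a regulator of the sodium pump and the only one of the 3 past 1.5-fold, read 238.4 in Cbs null and 133.3 in control sites. Over all genes that passed, 2.46% were at least 1.5-fold higher. Vdr, the vitamin D receptor that drives calbindins in the intestine, read 44.5 in Cbs null and 32.8 in control sites, under the filter. Also under it, Slc8a1 read 86.2 in Cbs null and 47.0 in control sites. Casr went the other way, at 27.4 in Cbs null and 36.7 in control sites. Cyp24a1, a vitamin D target, was under the floor on both arrays.

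Most markers of uterine epithelium were higher on the same array as the calbindins. Of 23 such genes 18 passed the filter and 16 of these had a ratio above 0. At least 1.5-fold higher were 9, beside 2.46% of all genes that passed, and none was as much lower. Cdh1 and Elf3 lay just under 0, each at -0.02. Krt8, Epcam, Cldn7, Krt7 and Krt19 were under 1.5-fold at 0.55, 0.39, 0.30, 0.29 and 0.25. Krt18 and Cldn3 were past it at 0.64 and 0.77. Probe sets of the same gene varied, with 0.90 and 0.40 in others of Krt8, and 0.58, 0.34 and 0.06 in others of Cldn3. The summed signal of the 18 was 26227.1 in Cbs null and 8293.0 in control sites, and the median log2 ratio was 0.59. Most of the Cbs null sum was signal of Prss29 (7620.0 in Cbs null, 2220.1 in control sites), Prss28 (6692.4, 918.9) and Spink1 (4853.2, 556.3). The gland products Spink1, Prss28 and Prss29 led the list at 3.13, 2.87 and 1.78, and Pigr, which carries IgA across epithelia, had 1.14. No gene of the list was under the floor on both arrays. The part of epithelium in the calbindin signals was not tested. Conceptus markers had a summed signal of 7478.9 in Cbs null and 3869.5 in control sites over the 10 of 19 that passed. Most of both sums was signal of the embryonic globin Hbb-y (4490.3 in Cbs null, 2494.9 in control sites). Rbp4 read 523.2 in Cbs null and 522.0 in control sites. The highest log2 ratios were those of Afp at 3.96, Ceacam11 at 2.62, Ttr at 1.78 and Tpbpa at 1.39. Afp, Ceacam11, Ttr, Prl2b1 and Prl4a1, 5 of these 10, were under 70.5 in control sites and passed only through their Cbs null value. Apob, Apom, Cdx2 and Elf5 were under the floor on both arrays. Fat cell markers summed to 9309.0 in Cbs null and 6537.6 in control sites, with 4 of 7 at least 1.5-fold higher, beside 2.46% of all genes that passed. These 4 were Thrsp at 1.14, Fabp4 at 0.81, Adipoq at 0.72 and Retn at 0.61, though another bright probe set of Fabp4 had 0.36. Plin4, a lipid droplet protein, went the other way at 94.5 in Cbs null and 133.9 in control sites (-0.50), and Lep was under the floor on both arrays. Their part was not tested either.

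S100a9 had the highest ratio of the set, while S100a8, its partner in calprotectin, had a ratio below 0. S100a9 read 113.0 in Cbs null and 15.7 in control sites, a log2 ratio of 2.85 or 7.20-fold higher. The control value barely cleared the floor of 14.3 and the mean stayed under the filter, so the size is imprecise. The log2 ratio was 1.51 with the floor at the 40th percentile of signal, 39.6, and 2.085 with a pseudocount. S100a8 read 567.4 in Cbs null and 724.5 in control sites, 1.28-fold lower with a log2 ratio of -0.35, inside the range of -0.44 to 0.39 of the 1000 probe sets nearest in signal. Each of the pair rested on a single probe set, and that of S100a8 may match several transcripts.

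Among 2312 genes under the filter with both signals above the floor, 65 were at least 2-fold higher in Cbs null sites (2.81%). S100a9 itself was the 1 gene of these with a ratio of its size. The filter on the mean and the floor limit how high a ratio in this group can be. Genes with a control signal under the floor are not in it, so nothing is read from this rank. The plot of ratios against signal shows the same S100a9 value among dim genes, where ratios spread more widely than among bright ones.

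**Figure D2:**
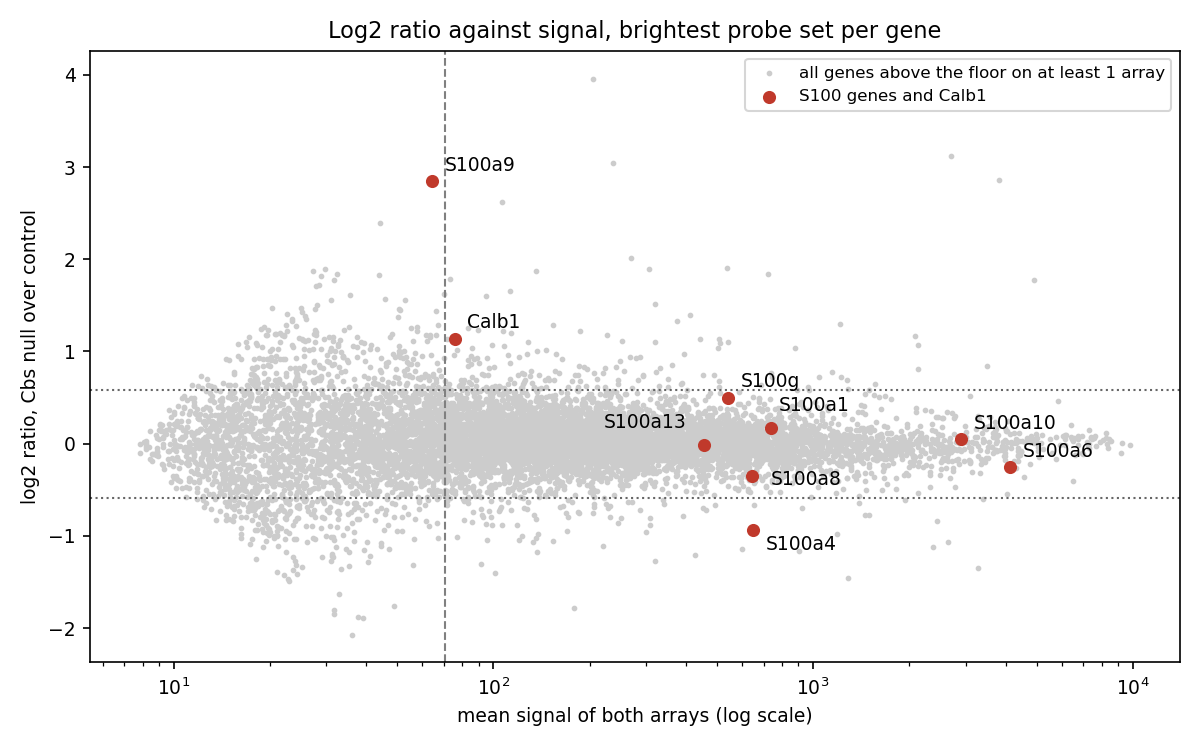
Log2 ratio of Cbs null over control against the mean signal of both arrays (log scale), for the brightest probe set of each gene; grey points are all genes above the floor on at least 1 array, red points the 9 genes with a value. Dotted lines mark 1.5-fold and the dashed line the filter of 70.5. S100a9, with a control signal of 15.7 next to the floor, stands above the grey points of like signal, and nothing is read from that rank. Calb1 stands at the upper edge and S100a4 at the lower edge of theirs, and the others lie within the dotted lines.

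Other markers of neutrophils gave little signal on either array. Of 15 on the array 1 passed the filter, Ctsg, the granule protease cathepsin G, which read 93.1 in Cbs null and 183.0 in control sites, lower where S100a9 was higher. Elane, Cxcr2, Mmp8, Cd177 and Trem1 were under the floor on both arrays. The granule proteins Ngp and Camp read 22.2 and 17.3 in Cbs null sites, against 22.6 and 17.5 in control sites. Csf3r, the receptor for the neutrophil growth factor, read 44.6 in Cbs null and 22.4 in control sites, and Fpr2 26.4 and 16.3. Prtn3 went the other way, at 15.6 in Cbs null and 31.9 in control sites. Csf3r, Fpr2 and Prtn3 were all under the filter. Macrophage markers, whose cells can also hold S100a8 and S100a9, summed to 11499.2 in Cbs null and 8705.1 in control sites over the 14 of 17 that passed. Of these 12 had a ratio above 0, but only 2 were at least 1.5-fold higher, H2-Ab1 at 0.97 and Cd68 at 0.83. Over all genes that passed, 2.46% were as much higher. The 2 with a ratio below 0 were Adgre1 at -0.005 and Fcgr3 at -0.21. Lyz1, the largest part of the macrophage sum, had 0.34, but its other bright probe set had -0.31. C1qb also had another probe set past the filter below 0, at -0.04. None of the 17 was under the floor on both arrays. Their part in the S100a9 signal was not tested.

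S100a4 was the member with the lowest ratio. This S100 protein, found in fibroblasts and in many leukocytes, binds nonmuscle myosin and is tied to cell movement. It read 446.0 in Cbs null and 850.7 in control sites, a log2 ratio of -0.93 or 1.91-fold lower, in its only probe set. Among the 1000 probe sets nearest in signal the central 95% ran from -0.43 to 0.39, and 0.353% of genes that passed the filter had a ratio as low. Both values were well above the filter, and under 8 other settings the log2 ratio stayed between -0.95 and -0.91. Several of these settings could not change it, because it has 1 bright probe set. They were the 2 other floors, the median over probe sets and the drop of probe sets that may match several transcripts. Myh9, the heavy chain it binds, read 3170.2 in Cbs null and 3129.6 in control sites.

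Most markers of uterine natural killer cells were lower on the same array as S100a4. Of 12 on the array 11 passed the filter and 10 were at least 1.5-fold lower, beside 1.33% of all genes that passed. Il2rb, at 61.1 in Cbs null and 110.5 in control sites, passed through its control value. The other Il2rb probe set read 63.3 in Cbs null and 79.2 in control sites (-0.32), under 1.5-fold. Klrk1 had a log2 ratio of 0.05, and Ncr1, under the filter, read 67.5 in Cbs null and 56.4 in control sites. The summed signal of the 11 was 8636.1 in Cbs null and 18881.5 in control sites. The granzymes Gzmc, Gzmd, Gzma and Gzme had the lowest log2 ratios, at -1.46, -1.35, -1.16 and -1.13. Gzmc, Gzmd and Gzme are close relatives in sequence, so how far they share signal is uncertain. Among the other leukocyte lists, most macrophage markers had ratios above 0, and Ctsg, the 1 neutrophil marker past the filter, was lower, as given above. Among decidual stroma genes, Bmp2 and Tdo2 were lower at -1.21 and -0.84, while the 12 that passed had a median of 0.03 and summed to 19370.5 in Cbs null and 19450.7 in control sites. Which cells carried S100a4 in these sites was not tested. No marker of the natural killer or stroma lists was under the floor on both arrays.

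The other S100 genes were less than 1.5-fold apart between the arrays. S100a6, or calcyclin, read 3759.3 in Cbs null and 4489.1 in control sites, a log2 ratio of -0.26. S100a10, which holds annexin A2 in a complex at the cell membrane, read 2951.1 in Cbs null and 2851.0 in control sites in 1 probe set (0.05), and 2668.8 and 3054.6 in the same order in the other (-0.19). S100a1, known for its work on calcium release in heart muscle, read 780.3 in Cbs null and 692.2 in control sites (0.17), and 224.4 and 234.7 in its other probe set (-0.06).

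S100a1 and S100a10 thus had ratios of opposite sign in their pairs of probe sets. Across 2284 genes with several probe sets past the filter the SD of that difference was 0.30, and both genes differed by less. The direction of these 2 genes is therefore not settled. S100a13, which takes part in the release of the growth factor Fgf1, read 453.9 in Cbs null and 456.8 in control sites (-0.01).

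The annotated starts of S100a1 and S100a13 face away from each other, and the stretch between them is shown because both genes were less than 1.5-fold apart between the arrays in each of their probe sets. It holds 104 bases at chr3:90514331-90514434, printed on the plus strand from RefSeq on GRCm38.p6, with a GC content of 58.7%. Capitals mark its 3 CG pairs.
S100a1 to S100a13: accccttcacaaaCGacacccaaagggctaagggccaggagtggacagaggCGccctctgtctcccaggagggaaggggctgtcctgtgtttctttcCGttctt

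Seen by place, 8 of the 10 genes lie on chromosome 3, with Calb1 on chromosome 4 and S100g on X. The S100 cluster as a whole held ratios of both signs. In the order of the RefSeq table, with genes under the floor or without a value left out, the log2 ratios were 0.17 for S100a1, -0.01 for S100a13, 0.15 for S100a16, -0.93 for S100a4, -0.26 for S100a6, -0.35 for S100a8 and 2.85 for S100a9. S100a4, S100a6 and S100a8 were thus successive members below 0, and S100a9 next to them stood above it. S100a10 lies apart on the same chromosome.

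Counted together, 8 of the 9 genes with a probe set of their own passed the filter, 4 with a ratio above 0 and 4 below. One gene, Calb1, which passed only through its Cbs null value, was at least 1.5-fold higher, where 2.46% of the 7079 genes that passed were. The same gene was at least 2-fold higher, where 0.622% of all genes were. S100a4 was the 1 gene at least 1.5-fold lower, beside 1.33% of all genes, and none was 2-fold lower, beside 0.283%. The median log2 ratio was 0.02, the same as over all genes that passed, with as many members above 0 as below. These counts leave out S100a9, and nothing is read from them because the members were chosen with these values known.

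Relatives outside the set were mostly dim or less than 1.5-fold apart. Of 9 other S100 and fused S100 genes on the array only S100a16 passed the filter, at 947.8 in Cbs null and 853.7 in control sites, and 7 were under the floor on both arrays, among them S100b, S100a3, S100a5 and S100a14. Of 23 other EF-hand genes 16 passed, with a median log2 ratio of -0.06 and 11 below 0. Calb2, or calretinin, the closest relative of Calb1, was the only one past 1.5-fold and stood the other way. It read 64.5 in Cbs null and 108.0 in control sites (-0.74), passing the filter through its control value. Among all genes that passed, 2.46% were at least 1.5-fold higher and 1.33% as much lower.

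Proteins bound by S100 proteins had a median log2 ratio of -0.03 over 13 genes, none of them 1.5-fold apart. Over all genes that passed, 2.46% were at least 1.5-fold higher and 1.33% as much lower, so nothing is read from this count. Anxa2, the partner of S100a10, read 3619.8 in Cbs null and 3805.7 in control sites, though a dim probe set of it had -1.05. Tlr4, a receptor for calprotectin, read 121.3 in Cbs null and 127.4 in control sites. Bsg, another, read 1208.9 in Cbs null and 1235.7 in control sites, and Ager, also a receptor for S100 proteins, was under the floor on both arrays. Smooth muscle genes had a median of 0.02, with Acta2 at 0.02 and Actg2 at -0.10, and endothelial genes one of -0.095, with Cd34 at -0.20 and Plvap at -0.36.

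**Figure D3:**
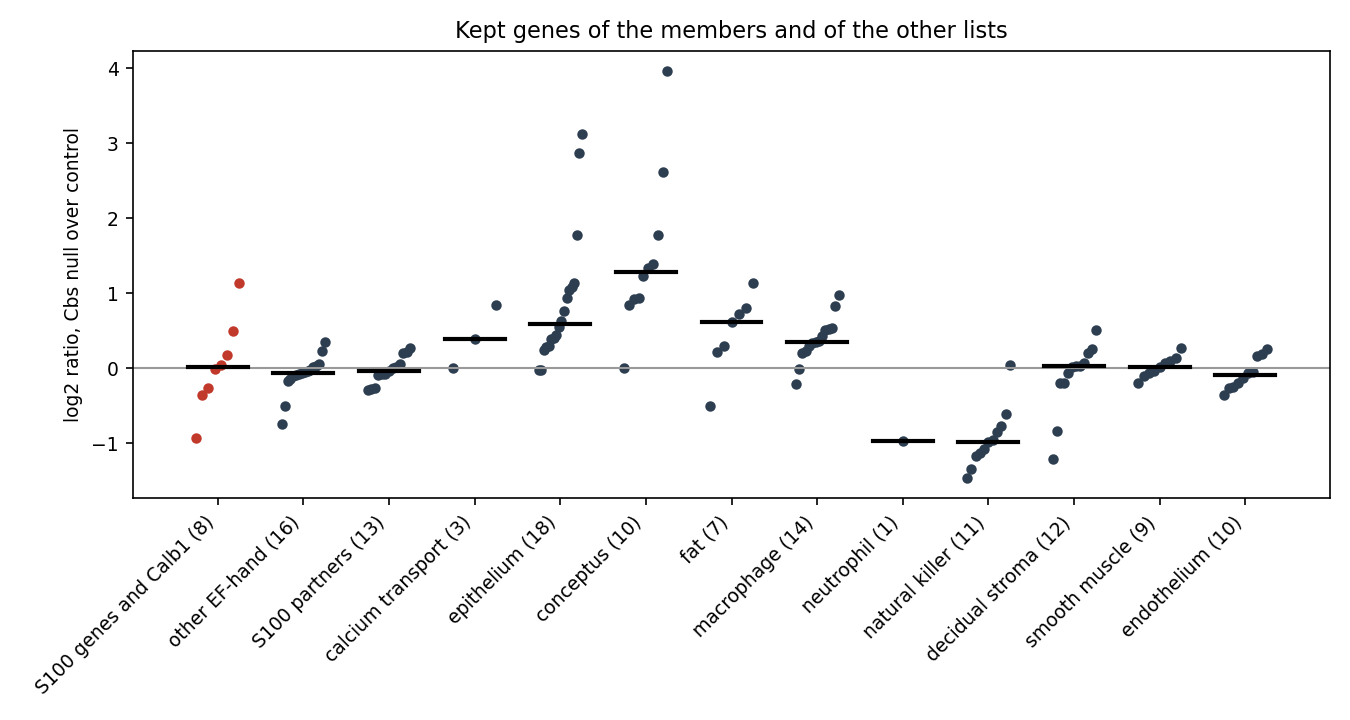
Log2 ratios of Cbs null over control for genes that passed the filter, with the S100 genes and Calb1 in red and the other lists in dark blue; each point is 1 gene, the black line the list's median, and the number in brackets the genes shown. The red points run from -0.93 for S100a4 to 1.14 for Calb1 around a median of 0.02.

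**Figure D4:**
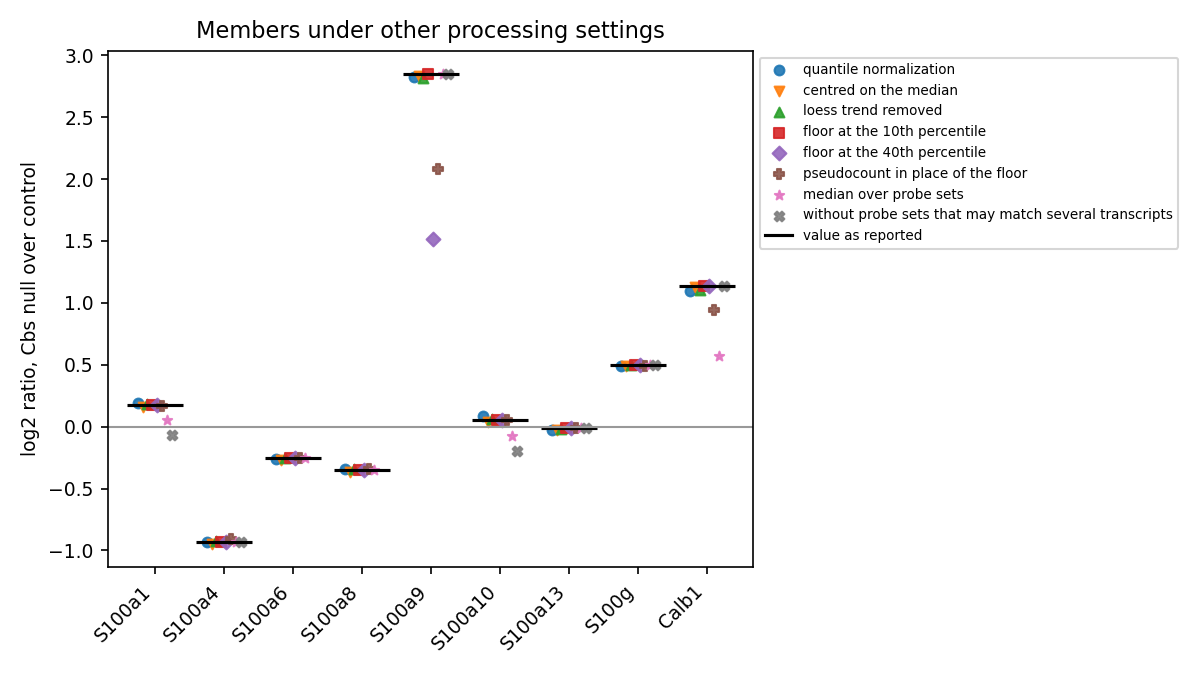
Log2 ratio of Cbs null over control of each of the 9 genes as reported (black line) and under 8 other processing settings (symbols), of which 7 gave a value for S100a6 and S100a8. S100a9 and Calb1 stay above 0 but spread from 1.51 to 2.85 and from 0.57 to 1.14, and S100a1 and S100a10 cross 0. S100a4 and S100g, each with 1 bright probe set that several settings cannot alter, stay within a narrow range.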

How the data were processed

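The authors deposited a linear intensity for each probe set on each array, and GCOS 1.4 is the software that the submitters' processing notes name. The sources used here do not state its algorithm, the genome build or detection calls. cRNA was made from 2 microg of total RNA, per the labels' protocols. The 2% trimmed mean was 200.08 on both arrays, so no further scaling was applied. With so few arrays, precision is limited by their number.

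After 64 control probe sets were left out, names came from the platform annotation. It gave 1 symbol for 20380 probe sets (20351 matched by identifier in the RefSeq table), several for 691 and none for 1555. A floor of 14.3, the 25th percentile of all signals, replaced lower signals. Genes were kept at a mean signal of at least 70.5 and represented by their brightest probe set. Ratios are log2 of Cbs null over control, without a test. From each of 13 other lists the naming rule took up to 4 genes at least 1.5-fold apart with the largest ratios, or the 2 brightest, and other genes were picked after their values were seen. The members and lists were chosen with earlier results of these data known. The steps were tested on simulated data. Python 3.11.15, pandas 2.3.3 and statsmodels 0.14.6 were used.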

Additional observations from a re-analysis of the deposited data

How the results depend on the processing

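The settings tried were loess, median and quantile scaling, 2 other floors, a pseudocount, 3 other filters, the median over a gene's probe sets, and dropping probe sets whose names mark possible matches to several transcripts. Of 114 values recomputed under these 11 settings, 107 stayed close to those reported, within 0.30 on the log2 scale or 1.5 times for a count, 7 moved further and none past 1.5-fold changed sign. Some of the 107 could not move, since another floor or the median over probe sets leaves a bright gene with 1 probe set as it was. The log2 ratio of S100a9 was 2.085 with a pseudocount and 1.51 with the floor raised to the 40th percentile, since its control signal lay next to the floor. Calb1 had 0.57 with the median over probe sets, as its other probe set was at the floor on both arrays, and the count of genes at least 1.5-fold higher was then 0. That count was 2 with a filter at the 25th percentile or no filter, which let S100a9 in, and 0 with a filter at the 75th, which left Calb1 out. The median of the set ran from -0.04 to 0.05. S100a6 and S100a8 have no value once such probe sets are dropped. Signal over background limits S100a9 and Calb1. No paired analysis was possible because each genotype has 1 array and the labels give no replicate numbers.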
